A study of Homo sapiens with 10 samples.

Results

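The genes of the proteasome were followed across 10 long-read libraries by the C-to-U edits that the deaminase APOBEC1 leaves in messenger RNA, fused to a ribosomal protein in the Ribo-STAMP libraries and on its own in the 3 APOBEC1-only libraries. Members were the genes whose symbol starts with PSMA, PSMB, PSMC, PSMD, PSME, PSMF or PSMG followed by a digit, and 48 of the 10628 genes with an edited coding position met this rule. They comprised 17 genes of the core particle, 6 of the ATPase ring, 11 of the lid and the non-ATPase base, 5 activators including the inhibitor PSMF1, and 7 assembly chaperones. The remaining 2, PSMC3IP and PSME3IP1, are named after a proteasome gene and are not subunits. Of the 48 members, 35 had an edited position in HEK293T and 47 in MDA-MB-231.

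The proteasome is the protease that degrades ubiquitin-tagged proteins in the cytosol and nucleus. Its core particle is a stack of alpha and beta rings with the protease sites inside, and a regulatory particle made of an ATPase ring, a base and a lid binds tagged proteins, removes the ubiquitin, unfolds the chain and feeds it into the core. Cells build these subunits in fixed proportions with the help of dedicated chaperones, and interferon-responsive cells exchange the constitutive catalytic subunits PSMB5, PSMB6 and PSMB7 for PSMB8, PSMB9 and PSMB10.

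HEK293T, an embryonic kidney line, carried a doxycycline-inducible vector for Ribo-STAMP, the ribosomal protein RPS2 fused to the cytidine deaminase APOBEC1 (n = 3), or for APOBEC1 without the ribosomal protein (APOBEC1-only, n = 3), and both sets received 1 ug/mL doxycycline for 72 h. MDA-MB-231 cells, from a breast cancer without hormone receptors or HER2, carried the Ribo-STAMP vector, was induced with 1 ug/mL doxycycline for 48 h, and received 100 uM CoCl2 for 48 h (n = 2) or no further treatment (n = 2). CoCl2 is a cobalt salt used as a chemical stand-in for low oxygen. Every MDA-MB-231 library therefore holds the edits of the fusion, and no MDA-MB-231 library shows the background of the unfused enzyme. The labels number the replicates without saying that they came from separate cultures, so each p-value weighs a difference against the spread among these libraries alone, and that spread may be technical.

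Depth was lower in HEK293T, where the median coverage of listed positions was 45 to 83 reads per library, against 137 to 150 in MDA-MB-231. The HEK293T libraries listed 2791 to 49078 edited positions, against 116253 to 134694 in MDA-MB-231, a number that also moves with the amount of editing. Reads on the listed isoforms numbered 157544 to 203094 in Ribo-STAMP and 81592 to 110526 in APOBEC1-only libraries of HEK293T, and 1120240 to 1204721 in CoCl2 and 1135886 to 1137588 in untreated libraries of MDA-MB-231. Of 6 MDA-MB-231 markers all 6 were listed in each MDA-MB-231 library and 0 to 2 in the HEK293T libraries. Of 5 HEK293T markers 1 to 3 were listed in each HEK293T library and NEFL in none, so this check of HEK293T was weak. Of 4 luminal breast markers, usually low in MDA-MB-231, KRT8 was listed in all 4 MDA-MB-231 libraries and ESR1 in none. RPS2, part of the fusion, had more edited reads in Ribo-STAMP than in APOBEC1-only cells (log2 change 5.49, limma adjusted p = 4.58e-11). It had 97, 95 and 361 edited reads in Ribo-STAMP libraries, against 1, 1 and 6 in APOBEC1-only libraries. Only its Ribo-STAMP libraries met the minimum of edited reads set for testing, and 99.7% of the genes tested were called higher. The call for RPS2 is therefore a weak check of the labels. The hypoxia-induced gene BNIP3 had higher coverage in CoCl2 than in untreated cells (log2 change 1.56, limma adjusted p = 0.000597). No coding position was listed in all 4 MDA-MB-231 libraries, among 347890 positions, or in all 6 HEK293T libraries, among 113981. Edits at sites shared by every library of a line were thus outside the values given here, and the part of this gap in the results was not tested.

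The edited sites themselves show what was read. The windows printed here hold 1 edited site of 9 members, each with the edited cytidine in capitals and 14 coding bases on either side, 5′ to 3′ on the coding strand, from GENCODE 29 transcripts (GRCh38). In each role the site has the highest mean edited share among 755 member positions that were listed in 3 MDA-MB-231 libraries and covered by at least 20 reads in each, so the shares of these sites chose them and carry no test. The top site of the lid, in PSMD6, was left out after its values were seen, with 29 covering reads in CoCl2 replicate 2, against 274 and 430 in the untreated libraries, and that of PSME3IP1, which is not a subunit, is not printed. Coverage at a site adds the isoforms listed there, which can differ between libraries, as they do at the PSMA4 and PSMF1 sites.
PSMA4: agagaatggaaagaCagtaatcagagttc
PSMB5: cagctgcctccaaaCtgcttgccaacatg
PSMB4: tcattcatggctgaCcagggccatgtaca
PSMB8: gaatgcaggctgtaCtatctgcgaaatgg
PSMC3: ctggtgggtgtgaaCaaagactcctatct
PSMD4: gaggatgattacgaCgtgatgcaggaccc
PSME2: gaatgccgtcaagaCcaaagtggaagctt
PSMF1: acccacacaccagtCggcagcctccctgg
PSMD10: gcagccaagggtaaCttgaagatgattca
The PSMA4 site (chr15:78548826, plus strand) lies at the second base of codon 223 of ENST00000044462, and its edit changes the amino acid. It carried 7 edited of 312 reads and 13 of 309 in the CoCl2 libraries, and 6 of 256 in untreated replicate 2. The PSMB8 site (chr6:32842257, minus strand) carried 3 edited of 30 reads and 2 of 20 in the CoCl2 libraries, and 3 of 22 in untreated replicate 2. The PSME2 site (chr14:24144225, minus strand) lies in codon 155 and carried 5 edited of 202 reads and 8 of 169 in the CoCl2 libraries, against 4 of 140 in untreated replicate 2. At each of these 3 sites the edited reads were a minority, and gene totals add up many such sites. In 8 of these 9 windows the base before the edited cytidine is A, and in PSMF1 it is T.

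In MDA-MB-231 the members held 3377 edited positions, all of them a C in the reference coding sequence, which amounts to 32.4% of their 10412 coding C. APOBEC1 prefers an A or a U before its target. An A or a T preceded the edited C in 73.1% (95% Wilson interval 70.9 to 75.1) of 1698 and 72.4% (70.2 to 74.6) of 1629 positions in the CoCl2 libraries, against 67.1% (64.4 to 69.7) of 1201 and 72.7% (70.2 to 75.04) of 1300 in the untreated libraries, where 46.7% of all member coding C have such a neighbour. All 4 libraries lay above that share, and untreated replicate 1 was the lowest. The ATPase ring had an A or T before 72.1% of its 469 positions, the core before 66.9% of 1030, the activators and PSMF1 before 76.5% of 243, and the lid and base before 53.6% of 1317. The low share of the last group came with its non-ATPase base, PSMD1, PSMD2 and PSMD4, at 35.0% of 497 positions and a median edited share of 0.0490% of reads per position. PSMD2 alone listed 315 positions, none above 0.137%. These intervals hold counting error alone, as several reads may stem from 1 molecule.

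Ribo-STAMP left far more edits on proteasome genes than APOBEC1 alone in HEK293T, as it did on nearly all of the 654 genes with enough edited reads to test, and within the family the edits sat on PSMD1 and PSMD2. PSMD1 (ENSG00000173692, chr2:231056864-231172827, plus strand, GRCh38) and PSMD2 (ENSG00000175166, chr3:184298709-184309054, plus strand) encode the large scaffold proteins of the base, which hold the ATPase ring and dock ubiquitin receptors and shuttle factors. The 3 Ribo-STAMP libraries held 607, 548 and 387 edited reads on members, against 27, 24 and 7 in the APOBEC1-only libraries. As a share of all edited reads this was 0.884% ± 0.214 in Ribo-STAMP and 0.588% ± 0.305 in APOBEC1-only libraries (SD, n = 3 each), 2 ranges that overlap. PSMD1 and PSMD2 together took 83.0, 72.4 and 51.2% of the member edits in Ribo-STAMP, against 63.0, 33.3 and 57.1% in APOBEC1-only libraries.

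PSMD1 had 305, 294 and 120 depth-scaled edited reads in Ribo-STAMP libraries, against 11.9, 5.89 and 3.60 in APOBEC1-only libraries. PSMD2 had 124, 119 and 65.6, against 3.67, 1.96 and 1.20. For both genes every Ribo-STAMP library lay above every APOBEC1-only library, with Ribo-STAMP replicate 3 the lowest of its group. Only these 2 members reached 10 edited reads in at least 3 libraries and were tested, and both were called higher, by log2 4.90 (SE 0.53, limma adjusted p = 1.71e-11) for PSMD1 and 5.00 (SE 0.58, adjusted p = 1.26e-10) for PSMD2. Of the 654 genes tested 99.7% were called higher and 0.153% lower, with a median log2 change of 3.76, so the calls say little about these genes in particular. Both met that minimum in the 3 Ribo-STAMP libraries, and in the APOBEC1-only libraries PSMD1 met it in 1 and PSMD2 in 0, so the minimum itself favoured a higher value and the calls are given as a description. With TMM scaling, which sets the bulk of genes equal, neither was called (log2 1.04, adjusted p = 0.381 for PSMD1 and 1.42, adjusted p = 0.296 for PSMD2), beside 3.82% of genes called higher and 0.153% lower. With the replicate number as a block both were called, beside 99.8% of genes called higher and 0.153% lower.

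The other 33 members together held 103, 151 and 189 edited reads in the Ribo-STAMP libraries and 10, 16 and 3 in the APOBEC1-only libraries. No single one exceeded 24 in a Ribo-STAMP or 3 in an APOBEC1-only library, and 18 of the 35 members had none in any APOBEC1-only library. In 17 of 35 members every Ribo-STAMP library lay above every APOBEC1-only library, beside 34.6% of 7004 genes. Without the minimum on edited reads 16 of 35 members were called higher and 0 lower, beside 32.3% of 7004 genes called higher. Among the activators PSME4, a nuclear cap of the core, had 24, 14 and 6 edited reads in Ribo-STAMP libraries and 0 in the 3 APOBEC1-only libraries, and it was the single member listed in HEK293T and not in MDA-MB-231. PSMC2, an ATPase ring subunit, had 4, 10 and 21 edited reads in Ribo-STAMP libraries, against 1, 0 and 0 in APOBEC1-only libraries. The catalytic subunit PSMB5 had 2, 2 and 1, against 1, 0 and 0, too few to test. PSMB6, PSMB8, PSMB9 and PSMB10 had no listed position in HEK293T.

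**Figure D1:**
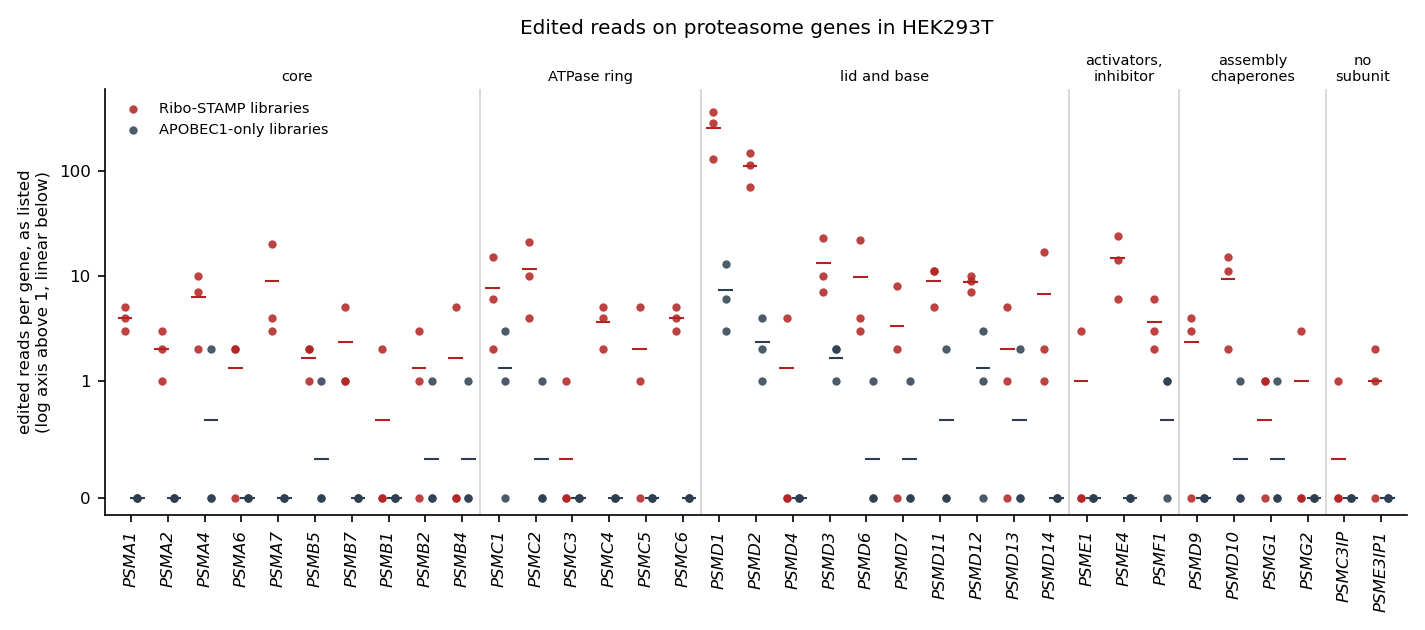
Edited reads listed per proteasome gene in each HEK293T library (y axis, log above 1 and linear below), with genes by role along the x axis, 3 Ribo-STAMP libraries left and 3 APOBEC1-only libraries right, and bars at the mean. PSMD1 (128 to 358 edited reads in Ribo-STAMP libraries) and PSMD2 (70 to 146) stand above the other 33 members, none of which passes 24.

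Editing per covering read divides out how often a transcript was sequenced, and is given as edited reads summed over positions per 100 covering reads, a rate that can pass 100. PSMD1 had 57.3, 54.8 and 51.6 edited reads per 100 in Ribo-STAMP libraries, against 2.56, 1.40 and 1.59 in APOBEC1-only libraries. PSMD2 had 88.5, 87.0 and 63.3, against 2.94, 1.44 and 1.37. PSMD3, a structural subunit of the lid, had 28.0, 74.2 and 24.4, against 3.70, 3.85 and 2.44, on 25 to 54 covering reads per library. The groups did not overlap in any of these 3 genes, which were the members tested, and PSMD3 replicate 2 of Ribo-STAMP stood above its group. All 3 rose, by log2 4.81 (SE 0.27, limma adjusted p = 2.71e-09) for PSMD1, 5.11 (SE 0.38, adjusted p = 2.89e-08) for PSMD2 and 3.17 (SE 0.50, adjusted p = 3.15e-05) for PSMD3, beside 95.7% of 392 genes called higher (96.9% with a replicate block) and a median of 3.47. Set against the median gene, PSMD1 (1.43, adjusted p = 0.00257) and PSMD2 (1.73, adjusted p = 0.00477) remained higher while PSMD3 was at -0.20 (adjusted p = 0.778), beside 18.6% of genes called higher and 13.5% lower. Isoforms enter only if edited in every library, also with APOBEC1 alone, so these genes were selected for some editing without the ribosomal fusion. Per kilobase of coding sequence PSMD2 had 29.2 ± 5.18 edited reads per 100 in Ribo-STAMP libraries and PSMD1 19.1 ± 0.995 (SD, n = 3 each).

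In MDA-MB-231 a larger share of all edits fell on proteasome genes after CoCl2. Members held 2917 and 2701 edited reads in the CoCl2 libraries, against 1753 and 1901 in the untreated libraries, which was 1.71% ± 0.0328 of all edited reads in CoCl2 and 1.09% ± 0.147 in untreated libraries (SD, n = 2 each). PSMD2 was the most edited member in all 4, and PSMD1 and PSMD2 together took 6.58 and 7.37% of the member edits in CoCl2 libraries, against 25.6 and 14.5% in untreated libraries. The ranges did not overlap in either measure.

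Edited reads per gene could be tested for 41 members. Of these 14 rose and 0 fell, beside 12% of 4097 genes called higher and 2.88% lower, and the median log2 change was 1.02 for members and 0.19 for all genes. The count moved with the minimum set on edited reads and coverage. Without a minimum per gene 0 members were called, beside 0% of 9750 genes. With positions of at least 2 edited reads 1 rose, and with positions covered by at least 20 reads 7 rose and 1 fell. The counts under these position filters have no share over all genes beside them. The core particle gave 8 of its 16 tested members, PSMA2, PSMA3, PSMA4, PSMA6, PSMA7, PSMB1, PSMB5 and PSMB7, the ATPase ring 3 of 5 (PSMC3, PSMC4 and PSMC5), the lid and base 1 of 10 (PSMD4, a ubiquitin receptor), the activators and PSMF1 1 of 4 (PSME2, an interferon-inducible cap subunit), and the chaperones 1 of 5 (PSMG1, a core-assembly factor). Class medians on the log2 scale were 1.35 for the core, 1.30 for the ATPase ring, 0.70 for the lid and base, 0.36 for the activators and PSMF1, and 0.90 for the chaperones.

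PSMA4 (ENSG00000041357, chr15:78540405-78552419, plus strand, GRCh38), a subunit of the outer alpha ring, had 84 and 122 edited reads in the CoCl2 libraries, against 23 and 39 in the untreated libraries. The structural beta subunit PSMB1 had 86 and 94, against 25 and 28. PSMB5, the subunit with the chymotrypsin-like site that clinical inhibitors block, had 86 and 66, against 24 and 41. CoCl2 libraries were above untreated ones in all 3 genes, and the log2 changes of the depth-scaled values were 1.87 (SE 0.37, limma adjusted p = 0.0300), 1.88 (SE 0.32, adjusted p = 0.0300) and 1.39 (SE 0.36, adjusted p = 0.0339). PSMD1 had the lowest value, with 12 and 16 edited reads in CoCl2 libraries against 68 and 24 in untreated libraries (log2 -1.33, SE 0.49, limma adjusted p = 0.0749), and was not called. The number of members called shifted with the library left out. Such fits leave 1 library in a group and have no share over all genes beside them, so their counts are not given. With the trend against transcript length taken out, 7 rose and PSME3 fell (6.32% and 1.51% of genes), with the coding length trend taken out 10 rose and PSME3 fell (9.26% and 3.42%), with a replicate block 22 rose and 1 fell (19.1% and 7.42%), and with TMM scaling 7 rose and 0 fell (5.05% and 4.74%).

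The immunoproteasome subunits were listed at low depth. PSMB8 had 16 and 14 edited reads in CoCl2 libraries, against 0 and 8 in untreated libraries (log2 2.52, SE 0.94, limma adjusted p = 0.0789). Only its CoCl2 libraries met the minimum of edited reads set for testing, so the minimum itself favoured a higher value. The change of PSMB8 is given as a description. PSMB9 had 2 and 4 edited reads, against 0 and 0, too few to test. PSMB10 had 47 and 29, against 18 and 26 (log2 0.89, SE 0.39, limma adjusted p = 0.123). None of the 3 was called without a length term, and their constitutive counterparts PSMB5 and PSMB7 were. PSMB6 had 47 and 75, against 23 and 35 (log2 1.19, SE 0.39, limma adjusted p = 0.0547). The calls for PSMB5 and PSMB7 were lost with either length trend taken out and with TMM scaling (limma adjusted p = 0.0534 each). With the replicate number as a block PSMB8 (limma adjusted p = 0.0172) and PSMB6 (adjusted p = 0.0194) were called too, beside 19.1% of genes called higher. The difference between the exchange partners was not tested.

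Coverage of a gene, the number of long reads on its edited isoforms, stands in for mRNA abundance, and fewer cells expressing a gene cannot be told apart from less RNA per cell. It rose after CoCl2 in most of the family and fell in 4 members: of 41 members tested 28 rose and 4 fell, beside 24.5% of 5672 genes called higher and 19% lower, with a median log2 change of 0.79 for members and -0.04 for all genes. In the core 13 of 15 members rose, in the ATPase ring 4 of 5, in the lid and base 5 of 10 with 2 lower, among the activators and PSMF1 2 of 4 with 1 lower, and among the chaperones 4 of 6 with 1 lower. All 7 alpha subunits rose, by 0.75 to 1.02 on the log2 scale. Both CoCl2 libraries lay above both untreated libraries in 32 of 41 members and below them in 5, beside 38.9 and 39.2% of genes.

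**Figure D2:**
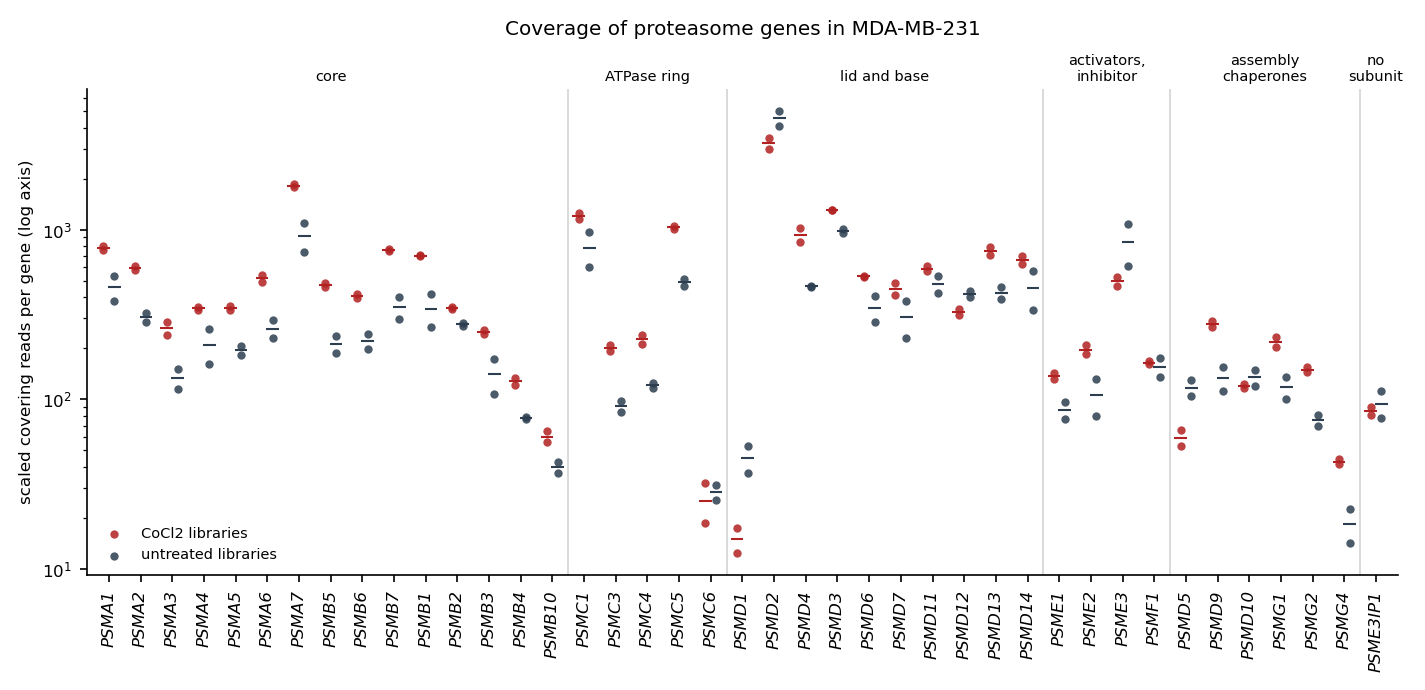
Scaled covering reads per proteasome gene (y axis, log) in MDA-MB-231, with the 41 tested genes by role along the x axis, 2 CoCl2 libraries left and 2 untreated libraries right, and bars at the mean. CoCl2 libraries lie above untreated ones along the whole core, while PSMD1, PSMD2, PSMD5, PSMD12 and PSME3 lie below.

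PSMB5 had 482 and 462 scaled covering reads in the CoCl2 libraries, against 188 and 237 in the untreated libraries (log2 1.16, SE 0.21, limma adjusted p = 0.00174). PSMB7, with the trypsin-like site, had 744 and 767, against 296 and 401 (1.13, SE 0.20, adjusted p = 0.00174). PSMB6, with the caspase-like site, had 393 and 417, against 197 and 243 (0.88, SE 0.21, adjusted p = 0.00409). The groups did not overlap in any of these 3 constitutive catalytic subunits. With the trend of change against transcript length taken out, none of them was called (PSMB5 0.42, limma adjusted p = 0.0724, PSMB7 0.27, adjusted p = 0.182, and PSMB6 -0.01, adjusted p = 0.962), and with coding length PSMB5 and PSMB7 were called (0.79 each) and PSMB6 was not (0.47, adjusted p = 0.0547). PSMB10, the counterpart of PSMB7 in the immunoproteasome, had 64.8 and 55.7, against 36.8 and 42.4 (0.59, SE 0.29, limma adjusted p = 0.102) and was not called, and PSMB8 and PSMB9 could not be tested.

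In the ATPase ring, whose subunits unfold substrates, PSMC5 had 1008 and 1053 scaled covering reads in CoCl2 libraries, against 465 and 511 in untreated libraries (log2 1.08, SE 0.19, limma adjusted p = 0.00155). PSMC3 had 192 and 210, against 98.2 and 83.9 (1.14, SE 0.23, adjusted p = 0.00208). PSMC6 was the exception of the ring, with 31.9 and 18.6 against 25.5 and 31.1, and its groups overlapped (-0.20, SE 0.37, adjusted p = 0.667). PSMC1 rose (0.66, SE 0.21, adjusted p = 0.0178), with the caution that the annotation names 13 pseudogenes of it, with which the deposited counting could share reads. PSMC2 had 1 to 4 edited reads per library and could not be tested.

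The lid and base split. The ubiquitin receptor PSMD4 had 1022 and 841 scaled covering reads in CoCl2 libraries, against 460 and 466 in untreated libraries (log2 1.00, SE 0.19, limma adjusted p = 0.00191). The lid subunit PSMD13 had 787 and 709, against 390 and 458 (0.82, SE 0.20, adjusted p = 0.00413), and PSMD14, the deubiquitinase that strips ubiquitin chains, had 627 and 696, against 337 and 567 (0.59, SE 0.23, adjusted p = 0.0382). PSMD6 and PSMD7, lid subunits, also rose. The scaffold subunit PSMD1 had 12.3 and 17.5, against 52.9 and 36.8 (-1.52, SE 0.37, limma adjusted p = 0.00457), and PSMD2, the most covered member, had 2988 and 3491, against 5022 and 4063 (-0.48, SE 0.18, adjusted p = 0.0374). The groups did not overlap in any of these genes. The call for PSMD2 was lost with the replicate number as a block (-0.48, limma adjusted p = 0.0828). With transcript length taken out PSMD4 (0.29), PSMD6 (-0.02), PSMD7 (0.11) and PSMD14 (0.33) were not called, and with coding length PSMD7 (0.37) and PSMD14 (0.33) were not.

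The interferon-inducible caps PSME1 and PSME2 rose by log2 0.67 (SE 0.25, limma adjusted p = 0.0345) and 0.93 (SE 0.26, adjusted p = 0.00842). Neither was called with transcript length taken out (-0.18 for PSME1, limma adjusted p = 0.545, and 0.26 for PSME2, adjusted p = 0.394) or with coding length taken out (0.27, adjusted p = 0.310, and 0.52, adjusted p = 0.101). PSME3, the nuclear cap, had 527 and 467 scaled covering reads in CoCl2 libraries, against 1086 and 613 in untreated libraries, and fell by 0.72 on the log2 scale (SE 0.23, limma adjusted p = 0.0176), with untreated replicate 1 far above the others. The inhibitor PSMF1 had 168 and 160, against 176 and 136, with overlapping groups (0.09, SE 0.23, adjusted p = 0.769). Among the chaperones of the base, PSMD9 had 290 and 266, against 112 and 156 (1.07, SE 0.23, limma adjusted p = 0.00248), while PSMD5 had 65.8 and 53.0, against 129 and 104 (-0.96, SE 0.26, adjusted p = 0.00787). The core-assembly chaperones PSMG1 (0.88), PSMG2 (0.98) and PSMG4 (1.21) rose, the last on only 41.5 and 44.2 scaled reads in CoCl2 and 14.2 and 22.6 in untreated libraries. With transcript length taken out PSMD5, PSMG2 and PSMG4 were not called, and with coding length taken out PSMG4 was not.

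Transcript length moved with these changes across the genome. Over all 5672 genes the log2 change in coverage fell by 0.51 per doubling of the length of the annotated transcript. Among the 1418 shortest genes the median change was 0.83 and 912 were called higher, and among the 1418 longest it was -0.59. Members had a median transcript of 1580 bases, against 2508 bases over all genes, and 25 of the 41 were among the 1418 shortest genes, where the median over all genes stands beside the 0.79 of the members. The untreated libraries also differed from each other in members: coverage in untreated replicate 2 minus replicate 1 had a median of 0.31 on the log2 scale over members, with 34 of 41 higher, against -0.00 over all genes, and CoCl2 replicate 2 minus replicate 1 gave -0.05. The part of this spread between replicates in the changes was not tested. The number of members called in coverage also shifted with the library left out, in fits that leave 1 library in a group. Lengths are those of the annotated isoform and may differ from the molecule read.

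**Figure D3:**
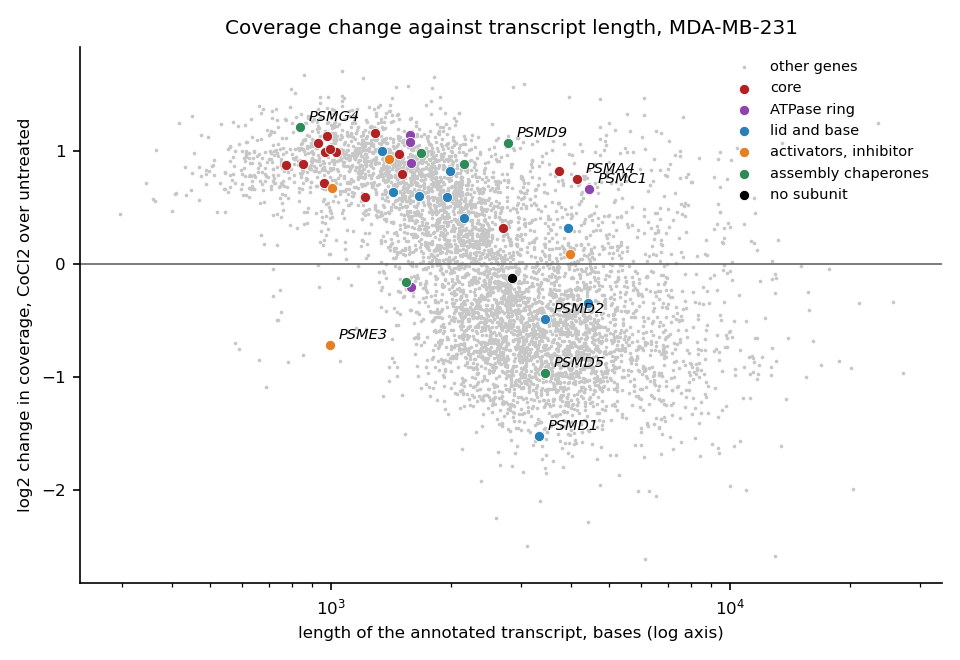
Log2 change in coverage of CoCl2 over untreated MDA-MB-231 (y axis) against the annotated transcript length in bases (x axis, log), with 1 point per gene, the 41 proteasome genes coloured by role and the other genes in grey. Short genes lie above 0 and long genes below it, and most proteasome genes lie within the cloud of genes of their length, with PSME3 below it and PSMD9, PSMA5, PSMA4 and PSMC1 above.

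With the trend against transcript length taken out, 10 members rose and 3 fell, beside 8.74% of genes called higher and 6.47% lower, and the median was 0.26 for members and -0.01 for all genes. Only 9 of the 32 calls made without a length term remained. The core dropped to 3 of 15 (PSMA4, PSMA5 and PSMB2), and the ATPase ring to 2 of 5. With coding length in its place 18 rose and 3 fell, beside 12.7% and 10.9% of genes, with a median of 0.47 for members and 0.02 for all genes, 7 of 15 core members higher and 4 of 5 ATPase genes. The class medians then were 0.47 for the core, 0.89 for the ATPase ring, 0.35 for the lid and base and 0.01 for the activators and PSMF1. PSMD2 was at -0.00 with transcript length taken out and 0.24 with coding length, neither called, so its fall did not remain.

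Of the tested members, 6 kept the same call without a length term and under both, namely PSMC1, PSMC5, PSMD13, PSMD9 and PSMG1 higher and PSME3 lower, beside 3.42% of genes called higher and 3.51% lower in all 3. With transcript length taken out their log2 changes were 1.17 (SE 0.25) for PSMC1, 0.51 (SE 0.13) for PSMC5, 0.59 (SE 0.13) for PSMD13, 1.38 (SE 0.21) for PSMD9, 0.78 (SE 0.19) for PSMG1 and -1.56 (SE 0.31) for PSME3. PSMD10, the base chaperone also called gankyrin, fell only with a length term, at -0.74 (limma adjusted p = 0.0231) with transcript and -0.59 (adjusted p = 0.0423) with coding length, against -0.16 (adjusted p = 0.598) without. PSMD1 fell with transcript length taken out (-1.06, limma adjusted p = 0.0469) and was at -0.77 (adjusted p = 0.0945) with coding length. PSMB2, PSMD11 and the inhibitor PSMF1 rose only with transcript length taken out, by 0.59, 0.82 and 0.59, and PSMD3 only with coding length taken out, by 0.69.

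**Figure D4:**
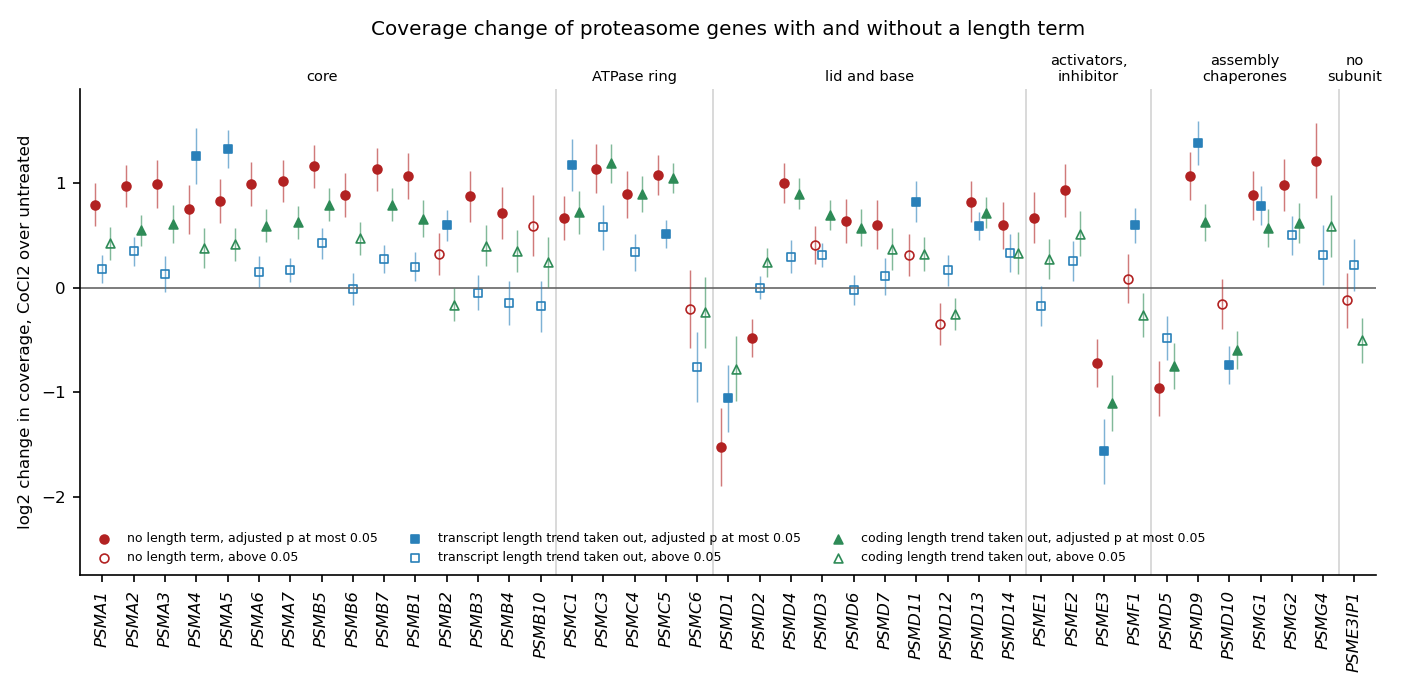
Log2 change in coverage of CoCl2 over untreated MDA-MB-231 (y axis, bars are the standard error) for the 41 tested proteasome genes by role, without a length term (circles), with the transcript length trend taken out (squares) and with the coding length trend taken out (triangles), filled where the adjusted p is at most 0.05. Of the filled circles, 28 above 0 and 4 below, 5 and 1 are also filled on the same side in both other fits.

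The transcription factors NFE2L1 and NFE2L2 are known to raise proteasome genes through antioxidant response elements. In coverage neither was called (NFE2L1 -0.56, limma adjusted p = 0.119, and NFE2L2 -0.46, adjusted p = 0.0946). Coverage stands in for their mRNA, and the amount or activity of their proteins was not measured. RefSeq promoters (GRCh38.p14, 250 bases before to 50 after the start) matched 42 of the 48 members. The motif core TGACNNNGC, searched on both strands, was present in 13 of the 42 (31.0%), beside 13.6% of all 27305 promoters. CCAAT was in 20 (47.6%, beside 35.7%) and the hypoxia response core ACGTG in 10 (23.8%, beside 21.6%). A match is a description of letters in a window, and no binding was measured. Of the 6 genes with the same coverage call in all 3 fits, PSMD9 (chr12:121888540-121888839, plus strand) holds the antioxidant core at 2 places and PSMG1 (chr21:39183402-39183701, minus strand) at 1. Of the members called without a length term, PSMB3, PSMC4, PSMD9, PSME1, PSME2, PSMG1 and PSMG2 (higher) hold the antioxidant core, as do PSMD1 and PSMD5 (lower). The hypoxia core stands in PSMA1, PSMA6, PSMB3 and PSMD9 (higher) and in PSMD5 and PSME3 (lower). A link between either motif and the coverage changes was not tested. The promoters of PSMD9 and PSMG1 are printed 5′ to 3′ on the gene's strand, with the motif in capitals on either strand.
PSMD9: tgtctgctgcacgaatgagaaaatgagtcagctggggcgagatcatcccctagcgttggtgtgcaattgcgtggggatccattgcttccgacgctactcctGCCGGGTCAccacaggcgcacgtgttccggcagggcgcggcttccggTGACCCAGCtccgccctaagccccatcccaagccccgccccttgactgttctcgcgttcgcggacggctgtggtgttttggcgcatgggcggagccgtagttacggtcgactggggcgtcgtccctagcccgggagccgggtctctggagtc
PSMG1: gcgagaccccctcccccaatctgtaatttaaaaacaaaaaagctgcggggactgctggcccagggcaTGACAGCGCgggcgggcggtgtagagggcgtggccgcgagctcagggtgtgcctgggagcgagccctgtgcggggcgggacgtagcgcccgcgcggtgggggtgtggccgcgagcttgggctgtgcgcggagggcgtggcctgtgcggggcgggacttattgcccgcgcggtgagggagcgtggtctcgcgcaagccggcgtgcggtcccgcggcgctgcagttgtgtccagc

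Editing per covering read showed no called change. CoCl2 libraries were above untreated ones in 18 of 41 members and below in 0, beside 31.2% and 9.11% of 5672 genes, and the median log2 change was 0.33 for members and 0.20 for all genes. By limma 0 of 41 members and 0 of 5672 genes passed the threshold (0% called), with 6 members and 484 genes at an unadjusted p under 0.05. With 2 libraries a group this count of 0 is no sign that editing per read was equal, and a large change could be missed. Class medians were 0.34 for the core, 0.41 for the ATPase ring, 0.23 for the lid and base, 0.13 for the activators and PSMF1 and 0.26 for the chaperones.

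PSMA4 had the highest log2 change of the tested members in this measure (1.16, SE 0.35, limma adjusted p = 0.518) and was not called. It had 24.8 and 39.2 edited reads per 100 in the CoCl2 libraries, against 13.5 and 14.2 in the untreated libraries. An alternative added after the data had been seen weighted each library's value of a gene by its edited reads on that gene. PSMA4 was then 1 of 3 genes called (0.0529% of genes), with a log2 change of 1.22 (SE 0.24, limma adjusted p = 0.00241). The weights come from the numerator of the tested measure, so this call is given as a description. In edited reads 1 of 41 members, PSMA4, was called higher without a length term and with each length trend taken out. That is near the share over all genes, 1.93%, and edited reads are also part of the per-read measure. Both PSMA4 isoforms listed in every library showed the same order. ENST00000044462 had 25.3 and 38.3 edited reads per 100 in CoCl2 libraries, against 13.5 and 14.04 in untreated libraries, and ENST00000559082 had 18.5 and 48.1, against 13.3 and 16.7, on 15 to 27 covering reads. The higher value came from CoCl2 replicate 2 in both isoforms.

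Per read, the alpha subunit PSMA6 had 20.9 and 19.6 edited reads per 100 in CoCl2 libraries, against 9.92 and 12.2 in untreated libraries (log2 0.86, SE 0.25). PSMB1 had 12.5 and 14.7, against 8.90 and 6.29 (0.84, SE 0.24), and PSMG4 had 27.9 and 23.7, against 13.3 and 8.33 (1.05, SE 0.49). These 3 had groups without overlap, but none passed the threshold. At the other end PSMF1 had 21.5 and 14.97, against 20.4 and 20.8 (-0.30, SE 0.32), and PSMD2 6.20 and 5.72, against 7.16 and 5.83 (-0.12, SE 0.17), with overlapping groups.

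**Figure D5:**
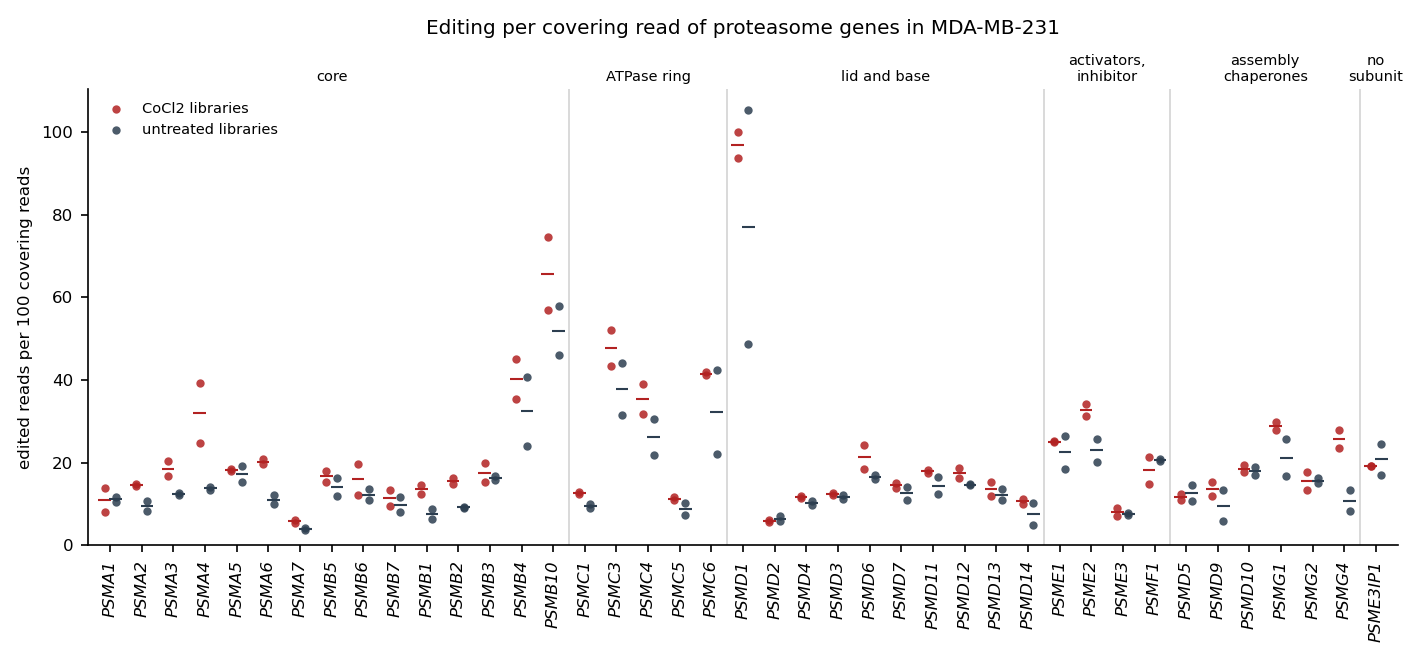
Edited reads per 100 covering reads (y axis, summed over positions) for the 41 tested proteasome genes by role in MDA-MB-231, with 2 CoCl2 libraries left, 2 untreated libraries right and bars at the mean. PSMA4 separates the groups (24.8 and 39.2 in CoCl2 libraries, 13.5 and 14.2 in untreated ones), and PSMD1 and PSMB10 hold the highest values.

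Levels between genes were compared per kilobase of coding sequence. The median over the 41 members was 21.5 edited reads per 100 covering reads and kilobase in CoCl2 and 15.3 in untreated libraries. PSMB10 was the highest, at 80.3 ± 15.3 in CoCl2 and 63.5 ± 10.0 in untreated libraries (SD, n = 2 each), and PSMD2 the lowest, at 2.19 ± 0.123 in CoCl2 and 2.38 ± 0.347 in untreated libraries. By class the medians in CoCl2 and untreated libraries were 24.2 and 16.3 for the core, 28.3 and 21.0 for the ATPase ring, 12.7 and 11.0 for the lid and base, and 28.1 and 27.8 for the activators and PSMF1. Within the ATPase ring PSMC3 was highest in both groups (36.3 ± 4.71 in CoCl2 and 28.8 ± 6.86 in untreated libraries), and within the lid and base PSMD1 (33.9 ± 1.55 and 27.0 ± 14.02 in the same order of groups). Coverage ran from PSMD2, the most covered, to genes such as PSMD1 and PSMB10 near the low end, and the part of coverage in these levels was not tested.

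Besides PSMA4, 6 members had 2 isoforms listed in every MDA-MB-231 library, PSMA1, PSMC4, PSMD4, PSMD6, PSMD11 and PSMF1. In the lid subunit PSMD6 the isoforms differed. ENST00000492933, the minor one, had 37.1 and 34.5 edited reads per 100 in CoCl2 libraries, against 6.67 and 7.14 in untreated libraries, from 13 and 10 edited reads against 2 and 2. ENST00000295901, the main isoform, had 23.3 and 17.6, against 17.2 and 17.7, with overlapping groups. In PSMD4 the minor isoform ENST00000368881 had 17.8 and 23.4, against 12.5 and 12.1, and the main isoform ENST00000368884 11.1 and 11.3, against 10.5 and 9.53. PSMA1, PSMC4, PSMD11 and PSMF1 had minor isoforms with at most 11 edited reads in a library, and no isoform was tested on its own.

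Edits that would create a stop codon made up 6.83 and 6.63% of member positions in CoCl2 and 6.08 and 6.62% in untreated libraries, against 7.18% of all member coding C. Changes of an amino acid made up 46.4 and 47.6% of positions in CoCl2 and 49.8 and 47.2% in untreated libraries, against 48.9% of coding C.

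In the wider ubiquitin pathway coverage moved both ways. Of 35 listed pathway genes outside the rule, 33 were tested for coverage, 12 rose and 13 fell, and the median change was -0.46 on the log2 scale, beside 24.5% of all genes called higher and 19% lower. ADRM1, a ubiquitin receptor of the base, had 978 and 947 scaled covering reads in CoCl2 libraries, against 411 and 474 in untreated libraries, and rose without a length term (1.12, limma adjusted p = 0.00155), with transcript length taken out (0.50, adjusted p = 0.0281) and with coding length taken out (1.08, adjusted p = 0.00812). SEM1, a small lid subunit under another name, rose by 1.39 (SE 0.26, limma adjusted p = 0.00186), with 195 and 277 scaled covering reads in CoCl2 libraries against 71.8 and 108 in untreated libraries, and PAAF1, an ATPase chaperone, rose by 1.25 (SE 0.30, adjusted p = 0.00444). NPLOC4, a cofactor of the segregase VCP, fell by 2.28 (SE 0.52, limma adjusted p = 0.00329). It had 14.4 and 3.28 scaled covering reads in CoCl2 libraries, against 50.04 and 29.2 in untreated libraries. UBE3C, a proteasome-bound ubiquitin ligase, fell by 1.29 (SE 0.43, adjusted p = 0.0230), with 14.4 and 7.64, against 27.9 and 26.4. The falls of NPLOC4 and UBE3C thus rest on few reads. UBA1, the ubiquitin-activating enzyme, fell by 1.26 (SE 0.27, adjusted p = 0.00225). UBA1 had 113 and 132 scaled covering reads in CoCl2 libraries, against 410 and 210 in untreated libraries. With transcript length taken out 5 pathway genes rose and 3 fell, with a median of -0.15, beside 8.74% and 6.47% of all genes. Among the pathway genes named here, values with a length trend taken out are given only for ADRM1. In edited reads 6 of 30 rose and 2 fell, with a median of -0.31, beside 12% and 2.88%. In HEK293T all 9 tested for edited reads and all 6 tested per covering read were called higher in Ribo-STAMP, beside 99.7% and 95.7% of genes, and with TMM scaling 0 of the 9 were called.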

How the data were processed

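The authors deposited, for each library, a list of edited coding positions per isoform, each with a pair of read counts, edited reads and covering reads, and only positions with at least 1 edited read. Libraries were PacBio long-read, and per the labels' protocols the kits differed by line, hence the 2 lines were never tested against each other. Builds hg19 and hg38 are named in the submitters' processing notes. MDA-MB-231 positions fell in GRCh38 coding sequence of their own gene and HEK293T positions mostly did not, so no HEK293T coordinates are given. The aligner, edit caller, filters and handling of strand: not given in the sources used here.

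Edited reads were summed per gene, scaled by the median ratio of isoform coverage, and tested as log2(value + 1) for genes reaching 10 edited reads in enough libraries to fill the smaller group (3 or 2). Coverage was the median covering reads over the listed positions of each isoform listed in every library of the line, summed per gene, TMM-scaled, with a mean over libraries of at least 10. Editing per covering read was fitted on those isoforms as the logit of edited against unedited reads over all their listed positions, with 0.5 added. Fold changes on these scales understate low genes. Tests used limma 3.58.1 (R 4.3.3, mean-variance trend) over all genes, two-sided, p-values adjusted by Benjamini-Hochberg, calls at 0.05, within 1 line at a time. Length trends were taken out of each library by lowess (fraction 0.5, statsmodels 0.14.6) on GENCODE 29 lengths. Python 3.11.15, pandas 2.3.3, numpy 2.4.6 and matplotlib 3.10.9 were used. The fits were also run on simulated data. Not every planted change was found there, and the unweighted fit of editing per covering read in MDA-MB-231 found none. Named genes were members past a threshold, catalytic subunits and their exchange partners, class extremes, members with 2 isoforms, RPS2, BNIP3 and up to 5 pathway genes per comparison. ADRM1 was added to the pathway genes because it is a subunit. Members and lists were chosen with earlier results of these data known. Intervals are 95% Wilson intervals.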

Additional observations from a re-analysis of the deposited data

How the results depend on the processing

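In HEK293T edited reads 2 members were called higher (99.7% of genes). TMM scaling left 0 (3.82%) and no minimum on edited reads gave 16 (32.3%). The 2 calls stayed when any 1 library was left out, in fits without a share over all genes. Editing per covering read gave 3 members (95.7% of genes), and these 3 calls also stayed when any 1 library was left out. PSMD3 was at -0.20 when centred on the median gene. In MDA-MB-231 edited reads, with 14 higher and 0 lower, TMM scaling gave 7 higher, no minimum 0, positions with at least 2 edited reads 1, positions covered by at least 20 reads 7 higher and 1 lower, and the transcript length trend taken out 7 higher and 1 lower. With the coding length trend taken out, 10 were higher and 1 lower. Leaving out 1 library gave 0 to 29 higher and 0 to 3 lower. In coverage, with 28 higher and 4 lower, 10 were higher with transcript length and 18 with coding length taken out, and leaving out 1 library gave 0 to 32 higher and 0 to 5 lower. With transcript length taken out PSMB3 was at -0.049, PSMB4 at -0.15, PSMB6 at -0.014, PSMD6 at -0.023 and PSME1 at -0.18, and with coding length PSMD2 was at 0.24. Editing per covering read in MDA-MB-231 gave 0 members, and 1 when weighted by edited reads. The causes of these shifts were not tested beyond the terms named. The weighting and the coding length trend were chosen after seeing the data.

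With the replicate number as a block, MDA-MB-231 edited reads gave 22 higher and 1 lower (19.1% and 7.42% of genes). Coverage gave 28 and 3 (23.6% and 19.3%), and editing per covering read 0 (0%). The HEK293T comparisons gave 2 higher in edited reads (99.8%) and 3 per covering read (96.9%). Same-numbered libraries correlated at 0.0872, 0.120 and 0.332 in HEK293T edited reads and at 0.0192 in MDA-MB-231 coverage, so the numbers were not taken to pair the samples. Precision is limited by 2 libraries a group in MDA-MB-231 and by few edited reads in HEK293T.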
